A study of Mus musculus with 24 samples.

Results

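The interleukin-6 (IL-6) cytokine family was followed through 5 genes for ligands (Il6, Il11, Lif, Osm and Clcf1) and 5 genes for receptors (Il6ra, Il6st, Lifr, Osmr and Il11ra1) in mouse pulmonary fibroblasts. The members were taken by gene name, as known gp130 ligands and their receptors. The rule uses no measured value, although earlier results of these data were known when the family was chosen. They are 10 of the 55291 gene names in the count tables, and all 10 were among the 16258 genes tested. Fibroblasts came from the lungs of C57BL/6 wild type (WT) mice and of TLR4-/- mice bought on a C57BL/6 background, all 4 to 8 weeks old. Each group of cells was isolated from a pool of 3 to 4 lungs and used at passages 3 to 6, after a night in reduced-serum medium. Cells of each genotype were then kept for 24 h with 1 of 4 additions before RNA sequencing: phosphate-buffered saline (PBS), recombinant mouse cold-inducible RNA-binding protein (rmCIRP) at 1 μg/ml, recombinant mouse transforming growth factor β1 (rmTGF-β1) at 2 ng/ml, or both proteins. Extracellular CIRP is a danger signal released in injury and sepsis that binds TLR4, and TGF-β1 is the classic driver of fibroblast activation. That gives 8 conditions of 3 libraries each. The labels do not say whether the 3 libraries of a condition came from separate cultures, so p-values measure the spread between libraries, which may be technical.

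Cytokines of this family signal through gp130, the shared receptor subunit encoded by Il6st. IL-6 and IL-11 first bind a private receptor, encoded by Il6ra and Il11ra1, and then recruit gp130, whereas leukemia inhibitory factor (Lif) pairs the Lif receptor (Lifr) with gp130 and oncostatin M (Osm) mainly uses the Osm receptor (Osmr) with gp130 in the mouse. Cardiotrophin-like cytokine factor 1 (Clcf1) signals through Cntfr, Lifr and gp130. Receptor engagement activates JAK kinases and chiefly STAT3, and SOCS3 dampens gp130 in return. In lung fibroblasts, IL-6 and IL-11 are known for their part in inflammation and fibrosis.

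Between 29853346 and 39664606 reads per library fell on genes (median 33585047). Values below are read counts normalised for library size by the median of ratios. Tlr4, the gene the genotype label names, was not lower in the libraries labelled TLR4-/-. It stood at 629.7 to 802 normalised reads in the 12 WT libraries and at 702 to 941 in the 12 others, and in PBS it was 0.25 ± 0.057 higher on the log2 scale (± standard error, edgeR, adjusted p = 0.00123). The counts do not show which part of the gene the reads cover, and the genotype is therefore given as labelled throughout. All 9 fibroblast markers were detected, with a summed level of 463380.0 to 650664 in WT libraries and 492986 to 616378 in the others. The 13 macrophage markers summed to 77378 to 94997 normalised reads in WT and to 303846 to 386614 under the label TLR4-/-, where 12 of 13 were higher and 1 lower in PBS. Epithelial markers summed to 23.2 to 115 in WT and 274 to 345 in the others, endothelial markers to 246 to 849.6 over all libraries, and T cell and B cell markers to at most 7.96. The neutrophil markers summed to 85.0 to 391, with S100a9 at 0 and Ly6g at 3 reads or fewer. Library 3 of the condition with both proteins under the label TLR4-/- stood apart from libraries 1 and 2 (chi-square per degree of freedom over genes 31.3 to 45.7), as did library 3 with rmTGF-β1 alone under that label (11.9 to 15.6). In the 20 other pairs of libraries of 1 condition this value was 2.52 to 7.03. Both libraries were high in several ligands, and several results are given with and without them. They enter the shared estimate of spread of every comparison.

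The promoters of the ligands with the largest levels are shown because these genes moved together with rmCIRP. RefSeq (GRCm38.p6) gave windows for 8 members (Il6, Il11, Lif, Il6ra, Il6st, Lifr, Osmr and Il11ra1), 11 windows in all since 3 of them have 2 starts. Each line holds the 250 bases before a start, 5′ to 3′ on the strand of the gene, with motif matches in capitals.
Il6, chr5:30012864-30013113, plus strand: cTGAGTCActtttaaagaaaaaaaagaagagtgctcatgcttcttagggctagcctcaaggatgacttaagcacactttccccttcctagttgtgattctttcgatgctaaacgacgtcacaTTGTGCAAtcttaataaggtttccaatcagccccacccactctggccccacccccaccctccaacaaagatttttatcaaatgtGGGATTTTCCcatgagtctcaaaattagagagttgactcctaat
Il11, downstream start, chr7:4778142-4778391, minus strand: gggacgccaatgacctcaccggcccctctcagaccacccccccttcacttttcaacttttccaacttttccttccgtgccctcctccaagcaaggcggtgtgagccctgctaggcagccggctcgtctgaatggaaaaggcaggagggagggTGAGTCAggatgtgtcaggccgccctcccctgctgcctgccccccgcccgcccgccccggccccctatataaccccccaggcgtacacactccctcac
Il11, upstream start, chr7:4782858-4783107, minus strand: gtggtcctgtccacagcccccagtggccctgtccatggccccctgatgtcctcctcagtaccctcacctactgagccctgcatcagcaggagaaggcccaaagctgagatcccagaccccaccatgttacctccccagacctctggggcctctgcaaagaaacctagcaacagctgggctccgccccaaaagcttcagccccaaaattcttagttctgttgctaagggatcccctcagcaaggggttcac
Lif, chr11:4257318-4257567, plus strand: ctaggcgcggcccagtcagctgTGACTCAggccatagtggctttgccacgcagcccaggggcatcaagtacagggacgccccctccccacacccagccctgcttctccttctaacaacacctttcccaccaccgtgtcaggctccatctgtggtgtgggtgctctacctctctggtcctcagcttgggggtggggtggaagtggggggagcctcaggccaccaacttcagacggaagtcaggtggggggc
The capitals mark AP-1 (TGANTCA), C/EBP (TTGNNCAA) and the NF-κB consensus, searched on both strands. The AP-1 letters were found before Il6 (bases -249 to -243 from the start), the downstream start of Il11 (-98 to -92) and Lif (-228 to -222), and in none of the 7 windows of the receptors. Of 32851 RefSeq windows of this length, 6.75% held them. Il6 alone among the 8 members held the C/EBP letters (-128 to -121) and the NF-κB consensus (-44 to -35), which 5.65% and 3.9% of all windows held. The STAT letters (TTCNNNGAA, 7.02% of windows) and the CRE letters (TGACGTCA, 1.55%) were in none of the 11. The short SMAD letters (CAGAC, 42.2% of windows, not capitalised) were found before Il11, Lif, Lifr and Il11ra1. A match describes letters only and does not show a bound site.

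All 5 ligands were higher in WT cells given rmCIRP than in those given PBS. Together with 3 of the 5 receptors, 8 of 10 members passed, beside 43.9% of all genes tested, of which 19.8% were higher and 24.1% lower as shares of all (edgeR quasi-likelihood test, adjusted p under 0.1, the threshold of the study). Il6, the classic acute-phase cytokine, stood at 10379.7, 15631 and 11956 normalised reads in the 3 PBS libraries and at 56835, 51101 and 59860.2 in the 3 rmCIRP libraries, so that the lowest rmCIRP library lay far above the highest PBS library. The fitted fold difference was 4.4 (log2 2.14 ± 0.24, adjusted p = 2.56e-07). In these bulk libraries, more transcript per cell and more cells of a producing type cannot be told apart, and neither can fewer cells and less RNA per cell. The counts also do not show which cells carried the reads, as macrophage markers summed to 77378 to 94997 in WT libraries.

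Lif, a cytokine best known from stem cell maintenance, rose from 7730.2, 11033 and 9065 to 47739.6, 43041 and 45871 normalised reads, a 4.89-fold difference (log2 2.29 ± 0.26, adjusted p = 2.88e-07). The 3 rmCIRP libraries were close to each other and none came near the PBS range. Osm, a cytokine made largely by myeloid cells, was the least abundant ligand and went from 21.2, 36.9 and 28.1 to 149, 145 and 146, a 5.08-fold difference (log2 2.34 ± 0.25, adjusted p = 1.04e-07). The 13 macrophage markers did not move one way in this comparison: 6 were higher and 7 lower, and their sum was 87200 to 94997 with PBS and 79758 to 84779 with rmCIRP. The sum of the neutrophil markers was 126 to 152 with PBS and 263 to 306 with rmCIRP, and its part in the results was not tested. Of these markers S100a8 was higher (log2 1.04 ± 0.28, adjusted p = 0.0053), Mpo did not pass (log2 -0.27 ± 0.39, adjusted p = 0.683), and S100a9 and Ly6g were near or at 0. Il11, a cytokine of stromal cells, was already abundant with PBS at 31084, 37891 and 30479.6 and reached 61034, 56351 and 67619, 1.85-fold higher (log2 0.89 ± 0.24, adjusted p = 0.00515). Clcf1 moved least, from 2483, 2535 and 2199 to 3349, 3495 and 3852 (1.48-fold, log2 0.56 ± 0.20, adjusted p = 0.0279). In each of the 5 ligands the groups did not overlap, as in 50.8% of all genes tested, and each call held with any 1 of the 6 libraries left out. For Clcf1 it held only barely, with adjusted p up to 0.09997.

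**Figure D1:**
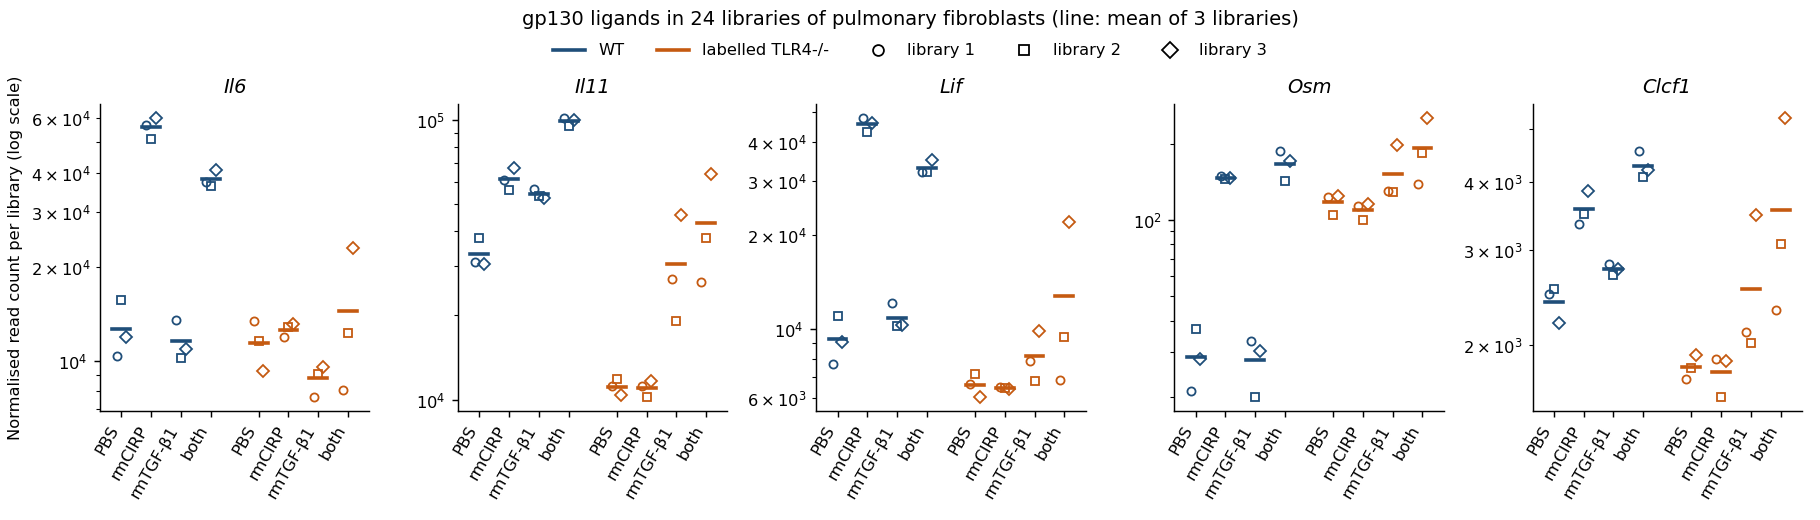
Normalised read count (log scale) of the 5 ligands in each of the 24 libraries. Symbols are libraries 1 to 3 and lines the mean of 3, in blue for WT and in orange for the label TLR4-/-. With rmCIRP all 5 WT groups lie above PBS, whereas the PBS and rmCIRP libraries labelled TLR4-/- overlap. Under the label TLR4-/-, library 3 (diamonds) of the condition with both proteins is the highest of its group in all 5 panels.

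The receptors moved less, and not in one direction. With rmCIRP, 1 of 5 was higher and 2 were lower in WT, beside the 19.8% and 24.1% of all genes tested given above. Il6st, which encodes gp130, was lower, at 8772, 10075 and 10071 with PBS and 8568, 8026 and 8073 with rmCIRP (log2 -0.23 ± 0.061, adjusted p = 0.00426). The highest rmCIRP library was below the lowest PBS library, although by a small margin. Il6ra, the private IL-6 receptor, fell from 236, 271 and 253 to 230.3, 180.0 and 203 (log2 -0.31 ± 0.10, adjusted p = 0.0167). This call was lost without rmCIRP library 2 (log2 -0.22, adjusted p = 0.122). Osmr was higher, at 4996, 6339.7 and 5972 with PBS and 7028, 6606 and 6535 with rmCIRP (log2 0.22 ± 0.078, adjusted p = 0.0334), but the call did not hold without PBS library 1 (log2 0.14, adjusted p = 0.179) or without rmCIRP library 1 (log2 0.18, adjusted p = 0.126).

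Lifr (423 to 456 with PBS, 423 to 475 with rmCIRP, log2 0.032 ± 0.075, adjusted p = 0.773) and Il11ra1 (698 to 796 and 598 to 739, log2 -0.16 ± 0.082, adjusted p = 0.134) did not pass the threshold, and their libraries overlapped. Il11ra1 passed as lower without PBS library 1 (log2 -0.20, adjusted p = 0.09) or without rmCIRP library 1 (log2 -0.22, adjusted p = 0.0612). It passed as well without the 2 libraries that stand apart (log2 -0.16 ± 0.066, adjusted p = 0.0572). Il11ra1 has near-identical copies in the mouse genome, and reads that aligned to several places were not assigned to genes, so its counts are uncertain. The copy Il11ra2 was at 0 reads in every library.

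**Figure D2:**
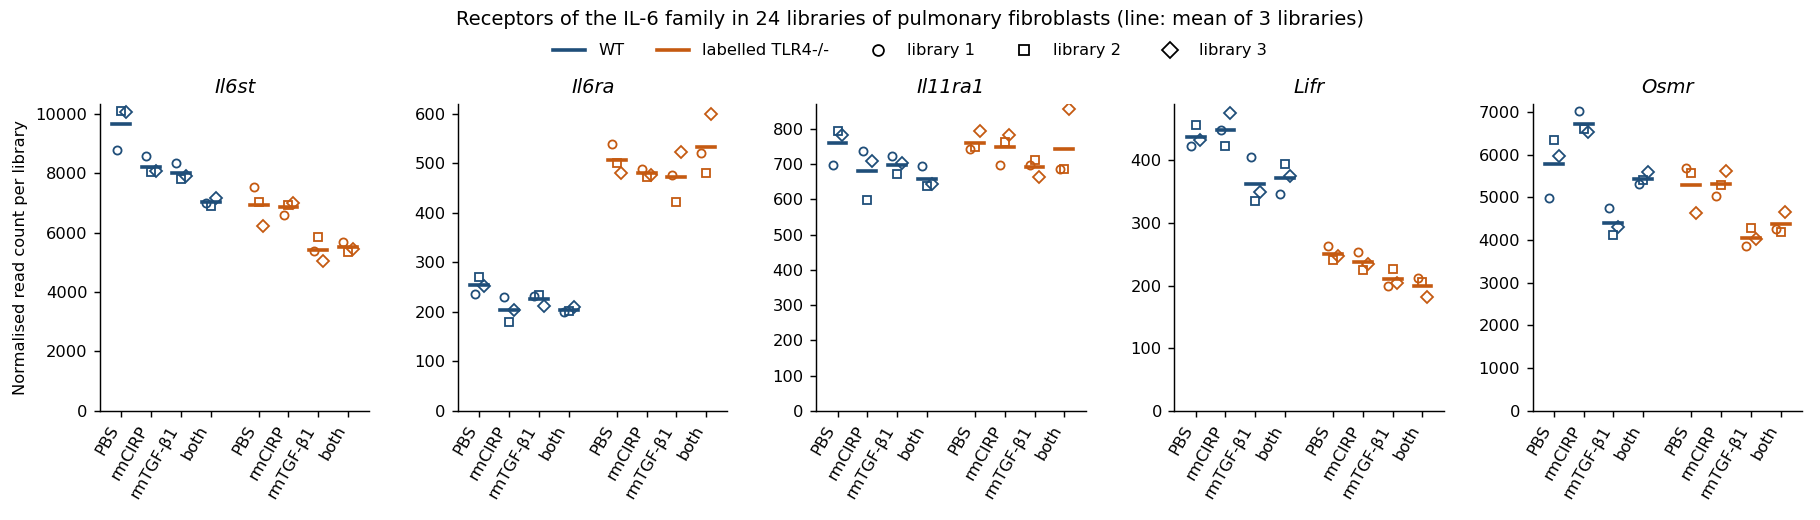
Normalised read count (linear scale from 0) of the 5 receptors in each of the 24 libraries, with symbols, lines and colours as for the ligands. Il6st, Lifr and Osmr are lower with rmTGF-β1 than with PBS under both genotype labels, and Il6ra is higher and Lifr lower in the libraries labelled TLR4-/-.

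With rmTGF-β1 alone, WT cells had more Il11 and less of 3 receptors. Among the ligands only Il11 passed as higher (1 of 5, beside 5.77% of all genes tested), and 3 of 5 receptors passed as lower (beside 6.65%). In all, 12.4% of genes changed. Il11 stood at 56853, 53644 and 52538 normalised reads with rmTGF-β1, above its 3 PBS libraries (log2 0.71 ± 0.24, adjusted p = 0.0675). That call was close to the threshold: it was lost when any 1 of 5 of the 6 libraries was left out (all but PBS library 2), with adjusted p up to 0.205 and log2 values of 0.65 (without PBS library 3) to 0.73 (without rmTGF-β1 library 3). It held without the 2 libraries that stand apart, which enter the shared estimate of spread (log2 0.71 ± 0.11, adjusted p = 6.98e-05). Leaving them out was chosen after the data had been seen. Il6 (13557, 10214 and 10905, log2 -0.14 ± 0.23, adjusted p = 0.801) and Osm (33.3, 20 and 30.4, log2 -0.037 ± 0.32, adjusted p = 0.968) overlapped with their PBS libraries. Lif (log2 0.23 ± 0.25, adjusted p = 0.664) and Clcf1 (log2 0.19 ± 0.20, adjusted p = 0.632) did not pass either, although the Clcf1 libraries did not overlap, as in 29.7% of all genes tested.

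The receptors that fell with rmTGF-β1 were Osmr, Lifr and Il6st. Osmr went from 4996, 6339.7 and 5972 with PBS to 4748, 4125 and 4300.3 (log2 -0.40 ± 0.078, adjusted p = 0.00229). Lifr went from 423, 456 and 433 to 404, 335 and 349 (log2 -0.28 ± 0.076, adjusted p = 0.0253). The Lifr call was lost without PBS library 2 (log2 -0.23, adjusted p = 0.115) or rmTGF-β1 library 2 (log2 -0.23, adjusted p = 0.145). Il6st stood at 8323, 7796 and 7916, below all 3 PBS libraries (log2 -0.27 ± 0.061, adjusted p = 0.00701). Lifr and Osmr are neighbouring genes on chromosome 15, and Lif and Osm on chromosome 11, in the RefSeq gene order of GRCm38.p6. Of the pair Osmr and Lifr, both passed as lower with rmTGF-β1 and Osmr alone passed, as higher, with rmCIRP.

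When rmCIRP was added to rmTGF-β1 in WT cells, all 5 ligands were again higher (20.5% of all genes tested were higher, 21.7% lower, 42.2% in all). The log2 differences from rmTGF-β1 alone were 2.57 ± 0.24 for Osm (adjusted p = 2.11e-08), 1.72 ± 0.23 for Il6 (5.35e-06), 1.59 ± 0.25 for Lif (3.15e-05), 0.86 ± 0.24 for Il11 (0.00681) and 0.63 ± 0.19 for Clcf1 (0.0146). Osmr was higher (0.30 ± 0.079, adjusted p = 0.00427) and Il6st lower (-0.20 ± 0.062, adjusted p = 0.0164). All 7 calls held with any 1 library left out.

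When rmTGF-β1 was added to rmCIRP in WT cells, Il11 was higher still and Il6st, Lifr and Osmr were lower (10% of all genes tested were higher, 10.5% lower, 20.5% in all). Il11 reached 101834, 95414 and 100119 normalised reads with both proteins, its highest level in the series, against 61034, 56351 and 67619 with rmCIRP (log2 0.68 ± 0.24, adjusted p = 0.0562). The call was lost when any 1 of 5 of the 6 libraries was left out, all but rmCIRP library 3, with log2 values of 0.63 (without rmCIRP library 2) to 0.70 (without library 2 with both proteins) and adjusted p up to 0.155. It held without the 2 libraries that stand apart (log2 0.68 ± 0.11, adjusted p = 5.15e-05). Il6st (-0.23 ± 0.062, adjusted p = 0.0118), Lifr (-0.28 ± 0.077, adjusted p = 0.0148) and Osmr (-0.31 ± 0.078, adjusted p = 0.00786) were lower on the log2 scale. Il6 and Lif had negative differences. Il6 was at 37203, 36208 and 40909.7 with both proteins, below its 3 rmCIRP libraries (log2 -0.56 ± 0.23, adjusted p = 0.109), and Lif at 31948, 32061 and 34908 likewise (log2 -0.47 ± 0.24, adjusted p = 0.221). Neither passed in the filtered fit of all 24 libraries, although their libraries did not overlap, as in 36.4% of genes. Both passed as lower with no filter on low counts (Il6 log2 -0.55 ± 0.044, adjusted p = 4.61e-33, Lif log2 -0.46 ± 0.045, adjusted p = 8.13e-23) and with only the libraries compared in the fit (Il6 log2 -0.55 ± 0.052, adjusted p = 2.73e-06, Lif log2 -0.47 ± 0.040, adjusted p = 1.17e-06). The log2 differences hardly changed in these fits and the standard errors shrank. The small p-values therefore rest on the estimate of spread and not on a larger difference. Without library 3 of rmTGF-β1 and of both proteins under the label TLR4-/-, which enter the shared estimate of spread, they passed as well (Il6 log2 -0.56 ± 0.14, adjusted p = 0.00477, Lif log2 -0.47 ± 0.10, adjusted p = 0.00123), as did Clcf1 as higher (log2 0.26 ± 0.075, adjusted p = 0.0129). Leaving out these 2 libraries was chosen after the data had been seen.

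The test of the interaction asks whether the log2 response to rmCIRP in WT differed between medium with and without rmTGF-β1. In the filtered edgeR fit of all 24 libraries no member passed (0.0492% of all genes tested did) and none had an unadjusted p under 0.05. DESeq2 called none. Lif had the largest difference, with a smaller response to rmCIRP in the presence of rmTGF-β1 (log2 difference -0.70 ± 0.35, adjusted p = 0.89). It passed without the same 2 libraries (log2 -0.69 ± 0.14, adjusted p = 0.0368). Lif passed as well with only the libraries compared (log2 -0.71 ± 0.13, adjusted p = 0.0147) and with no filter on low counts (log2 -0.71 ± 0.063, adjusted p = 1.59e-24). Its log2 difference hardly changed in these fits and the standard error shrank. The Il6 difference was -0.42 ± 0.32, adjusted p = 0.966, and passed only with no filter (log2 -0.43 ± 0.063, adjusted p = 8.54e-09).

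In PBS, the cells labelled TLR4-/- differed from WT in 5 of 10 members, beside 47.1% of all genes tested (23.2% higher, 24% lower). Il11 was lower, at 11144, 11802 and 10388 normalised reads against 31084, 37891 and 30479.6 in WT (log2 -1.58 ± 0.24, adjusted p = 1.51e-05). Osm was higher, at 123, 105 and 124 against 21.2, 36.9 and 28.1 (log2 2.03 ± 0.25, adjusted p = 8.15e-07). Il6ra was higher as well, at 539, 501 and 479.8 against 236, 271 and 253 (log2 1.00 ± 0.091, adjusted p = 5.76e-09). In all 3 genes the groups were far apart. The macrophage markers moved with the label too: 12 of 13 were higher under it, with a median log2 difference of 1.86, and the part of the macrophages in the Osm and Il6ra levels was not tested. Genotype, pool of lungs and macrophage content cannot be told apart in this design.

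Lifr was lower under the label TLR4-/- (263, 241 and 247 against 423, 456 and 433, log2 -0.81 ± 0.079, adjusted p = 1.85e-08), as was Il6st (7518, 7043 and 6216 against 8772, 10075 and 10071, log2 -0.48 ± 0.062, adjusted p = 1.20e-06). Il6 overlapped between the labels with PBS (9290.0 to 13446 and 10379.7 to 15631, log2 -0.15 ± 0.23, adjusted p = 0.645). Lif (log2 -0.49 ± 0.25, adjusted p = 0.124) and Clcf1 (log2 -0.40 ± 0.20, adjusted p = 0.117) did not pass, although neither overlapped between labels, as 51.7% of genes did not. Osmr passed as lower without WT PBS library 1 (log2 -0.20, adjusted p = 0.0406). Lif and Clcf1 both passed as lower without the 2 libraries that stand apart (Lif -0.49 ± 0.10, adjusted p = 4.19e-04, Clcf1 -0.40 ± 0.079, adjusted p = 1.77e-04).

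With rmCIRP, no member passed in the cells labelled TLR4-/-. By edgeR 0% of all genes tested passed in this comparison, with 6.99% at an unadjusted p under 0.05, and no member had an unadjusted p under 0.05 or was called by DESeq2, which called 33 genes in all. Il6 stood at 13446, 11549.6 and 9290.0 with PBS and 11882, 12793 and 13068 with rmCIRP (log2 0.14 ± 0.23, adjusted p = 0.966). Lif stood at 6645, 7176 and 6051 and 6527, 6479 and 6405 (log2 -0.028 ± 0.25, adjusted p = 0.994). Osm stood at 123, 105 and 124 and 113, 100.2 and 115 (log2 -0.10 ± 0.20, adjusted p = 0.975). The libraries overlapped in each of the 10 members, whereas 13.7% of all genes tested did not overlap. The differences of Il11 (-0.003 ± 0.24, adjusted p = 0.999) and Clcf1 (-0.023 ± 0.20, adjusted p = 0.994) were near 0, and those of the 5 receptors lay between -0.075 (Il6ra) and 0.011 (Osmr).

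The difference between the genotype labels was tested directly, as the log2 response to rmCIRP under the label TLR4-/- minus that in WT. It was called in 5 of 10 members, beside 31.4% of all genes tested (17.1% higher, 14.3% lower). The response was lower under the label in 4 of 5 ligands: Osm by a log2 difference of -2.44 ± 0.32, adjusted p = 6.22e-06, Lif of -2.32 ± 0.35, adjusted p = 4.16e-05, Il6 of -1.99 ± 0.33, adjusted p = 9.70e-05 and Il11 of -0.89 ± 0.34, adjusted p = 0.0569. Clcf1 did not pass (-0.59 ± 0.28, adjusted p = 0.141), but passed without the 2 libraries that stand apart (-0.59 ± 0.11, adjusted p = 2.29e-04). Il6st differed in the other direction (0.22 ± 0.087, adjusted p = 0.0648). The calls of Osm, Lif and Il6 held with any 1 of the 12 libraries left out. That of Il11 was lost without PBS library 1 or 3 or rmCIRP library 3 of WT, or without library 2 of PBS or of rmCIRP under the label (log2 -0.83 to -0.87, adjusted p up to 0.115). That of Il6st was lost without PBS library 2 or 3 or rmCIRP library 2 or 3 of WT, or without PBS library 3 or rmCIRP library 2 or 3 under the label (log2 0.13 to 0.22, adjusted p up to 0.244). Without the 2 libraries that stand apart both calls held (Il11 -0.89 ± 0.16, adjusted p = 9.22e-05, Il6st 0.22 ± 0.079, adjusted p = 0.0337). Osmr passed as lower without PBS library 2 of WT (log2 -0.29, adjusted p = 0.0603) or PBS library 3 under the label (-0.31, adjusted p = 0.0301), and Il6ra as higher without rmCIRP library 1 of WT (0.34, adjusted p = 0.0816).

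**Figure D3:**
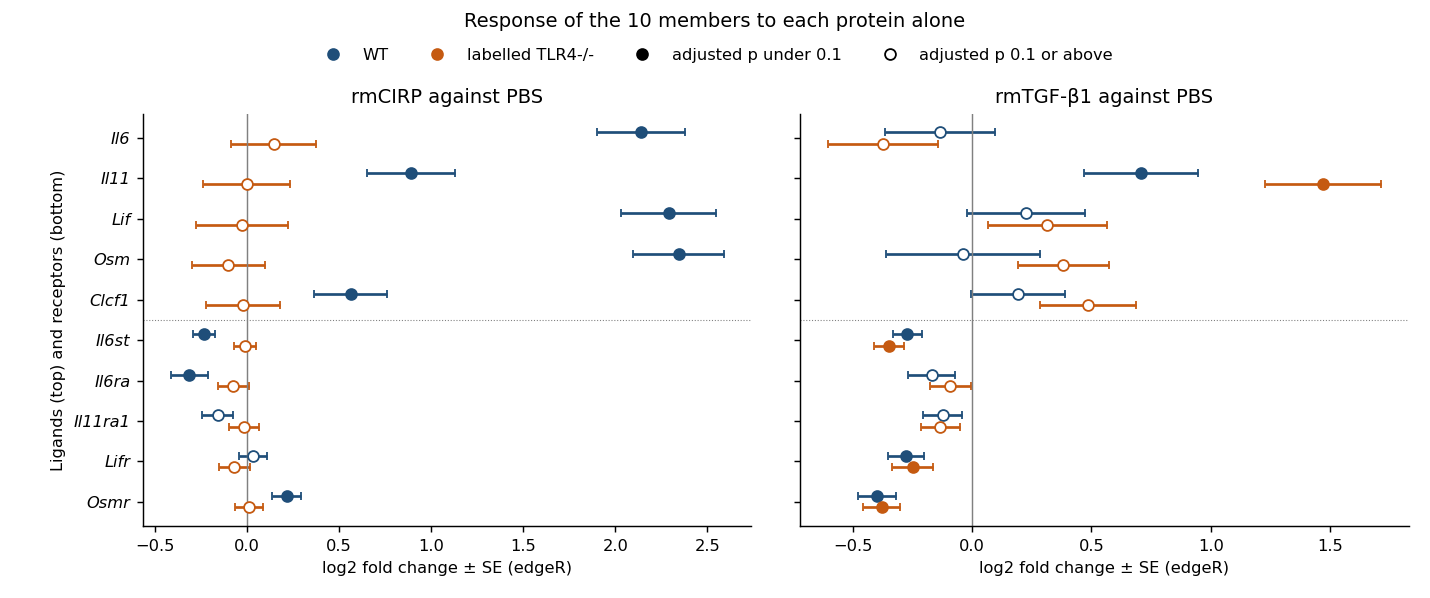
Log2 fold change of each member with its standard error, rmCIRP against PBS (left) and rmTGF-β1 against PBS (right), in WT (blue) and under the label TLR4-/- (orange); filled points have an adjusted p under 0.1. With rmCIRP the ligands lie at 0.56 to 2.34 in WT and near 0 under the label, whereas with rmTGF-β1 Il11 is higher and Il6st, Lifr and Osmr lower under both.

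With rmTGF-β1, members passed in the cells labelled TLR4-/- too. Il11 was higher and Il6st, Lifr and Osmr were lower, 4 of 10 members beside 23.9% of all genes tested (12.1% higher, 11.7% lower). Il11 rose from 11144, 11802 and 10388 with PBS to 27069, 19038 and 45813 (log2 1.47 ± 0.24, adjusted p = 1.72e-04), with library 3 the highest of its group. Without the 2 libraries that stand apart the difference was 1.06 ± 0.12, adjusted p = 1.13e-06. Osmr was at 3866, 4276 and 4027, below its PBS libraries at 5694, 5572 and 4622 (log2 -0.38 ± 0.079, adjusted p = 0.00165). Il6st was at 5379, 5833 and 5049 against 7518, 7043 and 6216 (log2 -0.35 ± 0.062, adjusted p = 3.77e-04). Without the 2 libraries that stand apart, Osmr (-0.37 ± 0.0835, adjusted p = 0.00266) and Il6st (-0.30 ± 0.064, adjusted p = 0.00168) were still called as lower. Lifr was at 199.8, 226 and 204 against 263, 241 and 247 (log2 -0.25 ± 0.085, adjusted p = 0.0464).

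The Lifr call under the label was lost without PBS library 1 (log2 -0.21, adjusted p = 0.161), rmTGF-β1 library 1 (-0.22, adjusted p = 0.141) or rmTGF-β1 library 3 (-0.23, adjusted p = 0.152), and without both libraries that stand apart (-0.23 ± 0.096, adjusted p = 0.113). Il6 stood at 7668, 9106 and 9578 with rmTGF-β1 against 13446, 11549.6 and 9290.0 with PBS and did not pass (log2 -0.37 ± 0.23, adjusted p = 0.295), but passed as lower without both of those libraries (log2 -0.44 ± 0.16, adjusted p = 0.0649). Clcf1 passed as higher without rmTGF-β1 library 1 or 2, (log2 0.60, adjusted p = 0.0778, and log2 0.62, adjusted p = 0.0452), and missed the threshold with all libraries (log2 0.49 ± 0.20, adjusted p = 0.101). No member's response to rmTGF-β1 differed between the labels by edgeR (0.0861% of all genes tested did), 1 had an unadjusted p under 0.05 (Il11) and DESeq2 called none. The Il11 response was larger under the label by 0.76 ± 0.34 on the log2 scale (adjusted p = 0.435).

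With both proteins under the label TLR4-/-, library 3 was above libraries 1 and 2 in every ligand. Against rmCIRP alone, 4 ligands were higher and 3 receptors lower, beside 17.2% and 15.6% of all genes tested (32.8% changed). Il11 was at 26304, 37844 and 64181 with both against 11216, 10228 and 11690.4 with rmCIRP (log2 1.95 ± 0.25, adjusted p = 1.26e-05). Lif was at 6856, 9403 and 22072 against 6527, 6479 and 6405 (log2 0.98 ± 0.25, adjusted p = 0.0064). In both genes library 3 was the highest. Without it the Lif difference no longer passed (log2 0.33, adjusted p = 0.1). Nor did the Lif difference pass with only the libraries compared in the fit (log2 0.98 ± 0.38, adjusted p = 0.138). Without both libraries that stand apart, Il11 (1.53 ± 0.12, adjusted p = 4.05e-09), Clcf1 (0.59 ± 0.087, adjusted p = 2.30e-05), Osm (0.56 ± 0.14, adjusted p = 0.00713) and Lif (0.33 ± 0.12, adjusted p = 0.0491) were higher, and Lifr was no longer called (-0.19 ± 0.095, adjusted p = 0.175).

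The log2 differences of Osm and Clcf1 between both proteins and rmCIRP with all libraries were 0.80 ± 0.19, adjusted p = 0.00346 and 0.98 ± 0.20, adjusted p = 0.00113. Those of Il6st, Osmr and Lifr were -0.32 ± 0.062, adjusted p = 7.14e-04, -0.29 ± 0.078, adjusted p = 0.00946 and -0.25 ± 0.086, adjusted p = 0.0342. Without the libraries that stand apart, Il6st (-0.32 ± 0.063, adjusted p = 8.7e-04) and Osmr (-0.34 ± 0.083, adjusted p = 0.00525) were still called as lower. The Lifr call was also lost without rmCIRP library 1 (log2 -0.19, adjusted p = 0.153) and without library 3 with both proteins (-0.19, adjusted p = 0.176). With only the libraries compared it was lost too (-0.25 ± 0.098, adjusted p = 0.141). Il6 stood at 8065, 12233 and 23010.4 with both proteins, a range that holds all its rmCIRP libraries. Its log2 difference from rmCIRP alone was 0.19 ± 0.23 with all libraries and -0.31 ± 0.16 without those that stand apart, and it passed in neither fit (adjusted p = 0.586 and 0.188). It passed as higher without library 1 with both proteins, as Il6ra did without library 2 (log2 0.22, adjusted p = 0.0895; Il6 log2 0.48, adjusted p = 0.0605).

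Against rmTGF-β1 alone, no member passed under the label with both proteins (2.69% of all genes tested did, 1.56% as higher). By edgeR 3 members had an unadjusted p under 0.05 (Clcf1, Il6 and Lif), and DESeq2 called 1 (Il6), beside 902 of 34285 genes. The log2 differences were 0.71 ± 0.23, adjusted p = 0.125 for Il6, 0.63 ± 0.25, adjusted p = 0.186 for Lif and 0.48 ± 0.24, adjusted p = 0.296 for Il11. Calls turned on single libraries here. The share over all genes is not given for the fits with 1 library left out. Whether the ligands moved more than other genes there is therefore not shown. Without rmTGF-β1 library 3 all 5 ligands passed as higher, at log2 0.89 (Il11, adjusted p = 0.0234), 0.79 (Lif, 0.0844), 0.78 (Il6, 0.0745), 0.77 (Clcf1, 0.0239) and 0.56 (Osm, 0.0664). Without library 1 of both proteins all 5 passed too, at 1.00 (Il6), 0.93 (Lif), 0.73 (Il11), 0.70 (Clcf1) and 0.50 (Osm). Without library 2 only Il6 did, and without library 3 Lif was at -0.017. Without both libraries that stand apart, Clcf1 (0.38 ± 0.095, adjusted p = 0.0398) and Il11 (0.47 ± 0.14, adjusted p = 0.0678) passed, beside 652 of 16483 genes. The comparisons of this genotype label share their PBS, rmCIRP and rmTGF-β1 libraries, as do those in WT.

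The 8 conditions were ordered differently by different members. Il6 was highest in WT with rmCIRP (55932 ± 4449 normalised reads, mean ± SD, n = 3), then in WT with both proteins (38107 ± 2478). These did not overlap with each other or with the next condition, and each of the other 6 overlapped with its neighbour in the order, down to 8784 ± 995 with rmTGF-β1 under the label TLR4-/-. Lif had the same 2 conditions on top (45550.5 ± 2366 and 32972 ± 1677), apart from each other and from the rest. Il11 was highest in WT with both proteins (99123 ± 3324), apart from the next, rmCIRP alone. Its 2 lowest conditions were PBS (11111 ± 707) and rmCIRP (11045 ± 746) under the label, which overlapped with each other and lay apart from all others. Clcf1 had the same condition on top as Il11 (4285 ± 243) and the same 2 at the bottom (1822 ± 93.5 and 1787 ± 157).

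Osm was ordered otherwise. It was lowest in WT with PBS (28.7 ± 7.90) and with rmTGF-β1 (27.9 ± 6.99), and those 2 conditions lay apart from the other 6. Its mean was highest with both proteins under the label TLR4-/- (192 ± 57.1), which overlapped with WT and both proteins (167 ± 22.2). Among the receptors, Il6ra was higher in all 4 conditions labelled TLR4-/- (means 473 to 533) than in the 4 of WT (203 to 253), and Lifr was lower in all 4 (means 199.99 to 250.1 against 363 to 449). Il6st was highest in WT with PBS (9639 ± 751) and lowest with rmTGF-β1 under the label (5420.1 ± 394). Osmr was highest in WT with rmCIRP (6723 ± 267), apart from the next. Il11ra1 had means of 658 to 761, and every condition overlapped with its neighbour in the order.

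Levels of different genes were compared per kilobase (kb) of exon, with all annotated exons of a gene merged (GENCODE M21). These lengths run from 2081 bases (Il11) to 12113 bases (Osmr), and the release behind the counts may differ. On this scale ligand message outweighed receptor message in every library. In WT with PBS, Il11 was at 15931 normalised reads per kb, which ranks 71st of the 15946 genes with a length, and Il6 at 5212 (rank 249). With both proteins Il11 reached 47632 per kb (rank 20), and 0.287% ± 0.011 of all reads on genes. With rmCIRP, Il6 reached 23036 per kb (rank 43) and Lif 10471 (rank 122, from 681 with PBS). Osm stayed at 12.3 to 84.3 per kb over the conditions (ranks 12840 to 8917), below Il6st, Osmr and Il11ra1 in each condition.

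Among the receptors per kb in WT with PBS, Il6st was the highest (868), followed by Osmr (476), Il11ra1 (169.8), Lifr (40.6) and Il6ra (29.3). Il6st was 29.7 ± 1.17 times Il6ra per kb there, and 10.6 ± 0.470 times under the label TLR4-/- (SD, n = 3). The sum of the 5 ligands over the sum of the 5 receptors, per kb, was 15.1 ± 1.52 in WT given PBS, 26.2 ± 0.545 after rmTGF-β1, 42.4 ± 3.18 after rmCIRP and 56.0 ± 1.25 after both. The 4 groups did not overlap. Under the label it was 9.20 ± 0.201 after PBS, 9.61 ± 0.307 after rmCIRP, 20.1 ± 7.82 after rmTGF-β1 and 27.4 ± 12.2 after both, where the 3 libraries ran from 16.6 to 40.6. Il11 made up 66.7% ± 1.98 of the ligand sum in WT with PBS, 46.2% ± 0.974 with rmCIRP and 76.6% ± 1.55 with rmTGF-β1. Lengths are the same in every library, so these shares differ between conditions only through the counts.

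**Figure D4:**
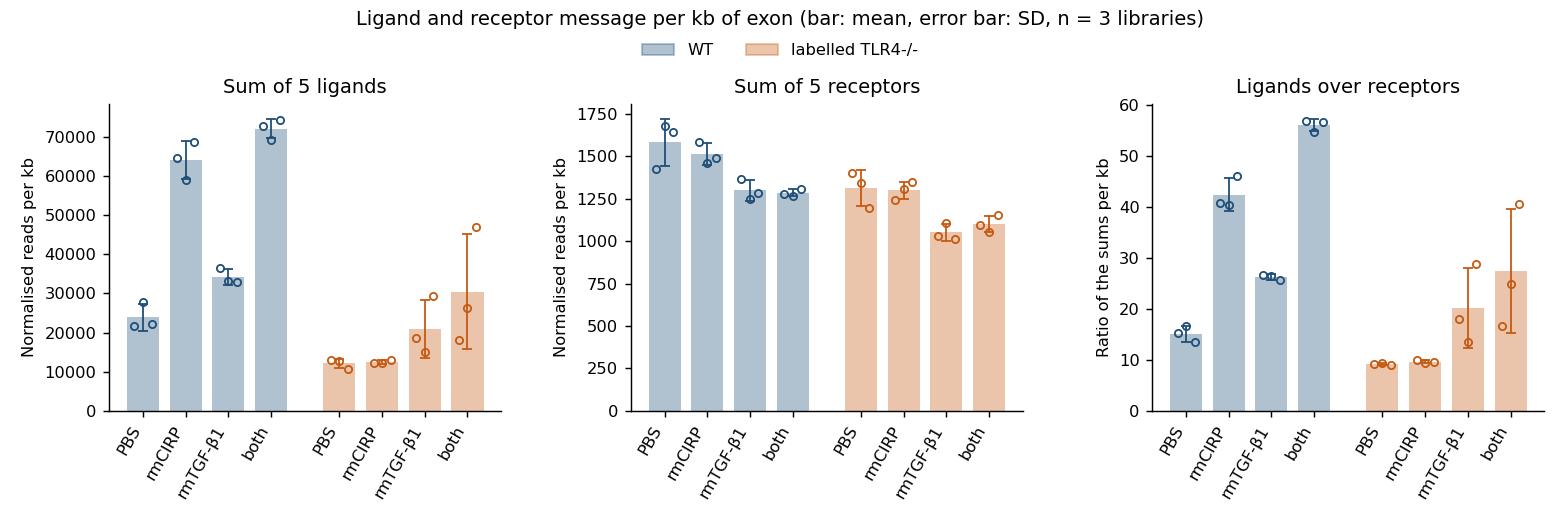
Sum of the 5 ligands (left) and of the 5 receptors (middle) in normalised reads per kb of exon, and the ratio of the sums (right). Bars are means, error bars the SD and circles the 3 libraries of a condition. In WT the ratio goes from 15.1 with PBS to 56.0 with both proteins, whereas under the label TLR4-/- it is 9.20 with PBS and 9.61 with rmCIRP.

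Genes that act beside and below the members were taken from lists of the gp130 pathway. Of 6 other ligands and co-ligands, 4 were tested. Il27 and Ebi3, the subunits of interleukin-27, which also signals through gp130, were higher with rmCIRP in WT. Il27 had 4, 1 and 3 raw reads in the PBS libraries and 197, 189 and 264 in the rmCIRP libraries (edgeR adjusted p = 1.20e-12). It had 120, 121 and 121 with both proteins and between 4 and 15 in every library labelled TLR4-/-. Ebi3 went from 41.8 ± 15.5 to 79.9 ± 3.31 normalised reads (log2 0.92 ± 0.19, adjusted p = 4.41e-04). Ctf1 and Ctf2 did not pass with rmCIRP, nor did Cntfr and Il27ra, the 2 of 4 further receptors that were tested.

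Of 7 genes for kinases, STATs and a phosphatase, 4 were higher and 2 lower with rmCIRP in WT, beside 19.8% and 24.1% of all genes tested. Jak2, a kinase bound to gp130, was higher (log2 0.43 ± 0.054, adjusted p = 1.49e-06), as were Stat5a (0.34 ± 0.076, adjusted p = 0.00109), Tyk2 (0.16 ± 0.044, adjusted p = 0.00521) and Jak1 (0.13 ± 0.043, adjusted p = 0.0182). Stat3, the main STAT of gp130, was slightly lower (-0.11 ± 0.042, adjusted p = 0.039), as was Stat5b (-0.30 ± 0.046, adjusted p = 2.10e-05), and Ptpn11 did not pass. The Stat3 call was lost without PBS library 2 or 3 or rmCIRP library 2 or 3 (log2 -0.075 to -0.096, adjusted p 0.124 to 0.235). With rmTGF-β1 in WT, 4 of these 7 were lower (Jak2, Stat3, Stat5a and Tyk2) and none higher, beside 6.65% and 5.77% of all genes tested. Under the label TLR4-/-, none of the 7 passed with rmCIRP, and the direct test of the difference called 4 of 7, beside 31.4% of all genes tested: Jak2 (log2 -0.40 ± 0.077, adjusted p = 5.63e-04), Stat5a and Tyk2 as lower and Stat5b as higher. The Tyk2 difference was lost without rmCIRP library 1 of WT (log2 -0.15, adjusted p = 0.119) or rmCIRP library 3 under the label (log2 -0.15, adjusted p = 0.121).

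Of 6 feedback inhibitors, 4 were higher and 1 lower with rmCIRP in WT, beside 19.8% and 24.1% of all genes tested. Socs3, the inhibitor that binds gp130, went from 1225 ± 104 to 3659.9 ± 138 normalised reads (SD, n = 3, log2 1.57 ± 0.12, adjusted p = 5.60e-10). Socs1 (1.68 ± 0.14, adjusted p = 2.57e-09), Cish (0.57 ± 0.10, adjusted p = 9.77e-05) and Ptpn2 (0.31 ± 0.049, adjusted p = 2.88e-05) were higher as well, Pias3 was lower (-0.16 ± 0.053, adjusted p = 0.0191) and Socs2 did not pass. None of the 6 passed with rmTGF-β1 in WT (12.4% of all genes tested did), and none with rmCIRP under the label, where Socs3 was at 1304 ± 82.0 with PBS and 1284 ± 84.03 with rmCIRP. The difference between labels was called in 5 of 6, beside 31.4% of all genes tested, with Socs3 at -1.59 ± 0.17, adjusted p = 3.32e-07. That of Pias3 was lost without PBS library 1 (0.111) or rmCIRP library 2 (0.128) of WT, or PBS library 1 under the label (0.135, all adjusted p).

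Of 18 genes known as targets of gp130 and STAT3, 12 were higher and 1 lower with rmCIRP in WT (19.8% and 24.1% of all genes tested), with a median log2 difference of 0.55 beside -0.022 over all genes tested. Several of the 18, such as Icam1 and Lcn2, are also known targets of NF-κB. The largest differences were those of the adhesion molecule Icam1 (1.98 ± 0.069, adjusted p = 9.77e-16), the iron-binding protein Lcn2 (1.94 ± 0.23, adjusted p = 8.48e-07), Socs3, Ier3 (1.53 ± 0.20, adjusted p = 2.79e-06) and the acute-phase protein Saa3 (1.48 ± 0.23, adjusted p = 2.19e-05). The factors Cebpd (1.35 ± 0.12, adjusted p = 3.76e-09), Cebpb (0.86 ± 0.15, adjusted p = 7.50e-05), Junb (0.65 ± 0.076, adjusted p = 4.88e-07) and Bcl3 (0.50 ± 0.11, adjusted p = 0.00105) were higher too, as were Timp1 (0.60 ± 0.074, adjusted p = 1.19e-06), Pim1 (0.23 ± 0.079, adjusted p = 0.0271) and Mcl1 (0.20 ± 0.067, adjusted p = 0.0212). Il4ra was lower (-0.12 ± 0.051, adjusted p = 0.0639), a call lost without PBS or rmCIRP library 2 or 3 (log2 -0.083 to -0.13, adjusted p 0.103 to 0.297), and Bcl6, Hp, Lrg1, Serpina3n and A2m did not pass. With rmTGF-β1 in WT, 1 of 18 was higher (Junb) and 4 lower (Bcl3, Cebpd, Icam1 and Il4ra), beside 5.77% and 6.65% of all genes tested. Of the 18, 12 had a lower response to rmCIRP under the label and 0 a higher one, beside 14.3% and 17.1% of all genes tested. They are the 12 that rose in WT. The WT response enters the difference, and 0% of all genes tested passed with rmCIRP under the label. The 12 lower differences therefore largely repeat the rise in WT. The difference of Mcl1 was lost without library 1 of PBS or rmCIRP in WT or library 2 of PBS or rmCIRP under the label (adjusted p 0.1 to 0.115). None of the 18 passed with rmCIRP under the label, and the counts of the 3 lists were the same without the 2 libraries that stand apart.

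**Figure D5:**
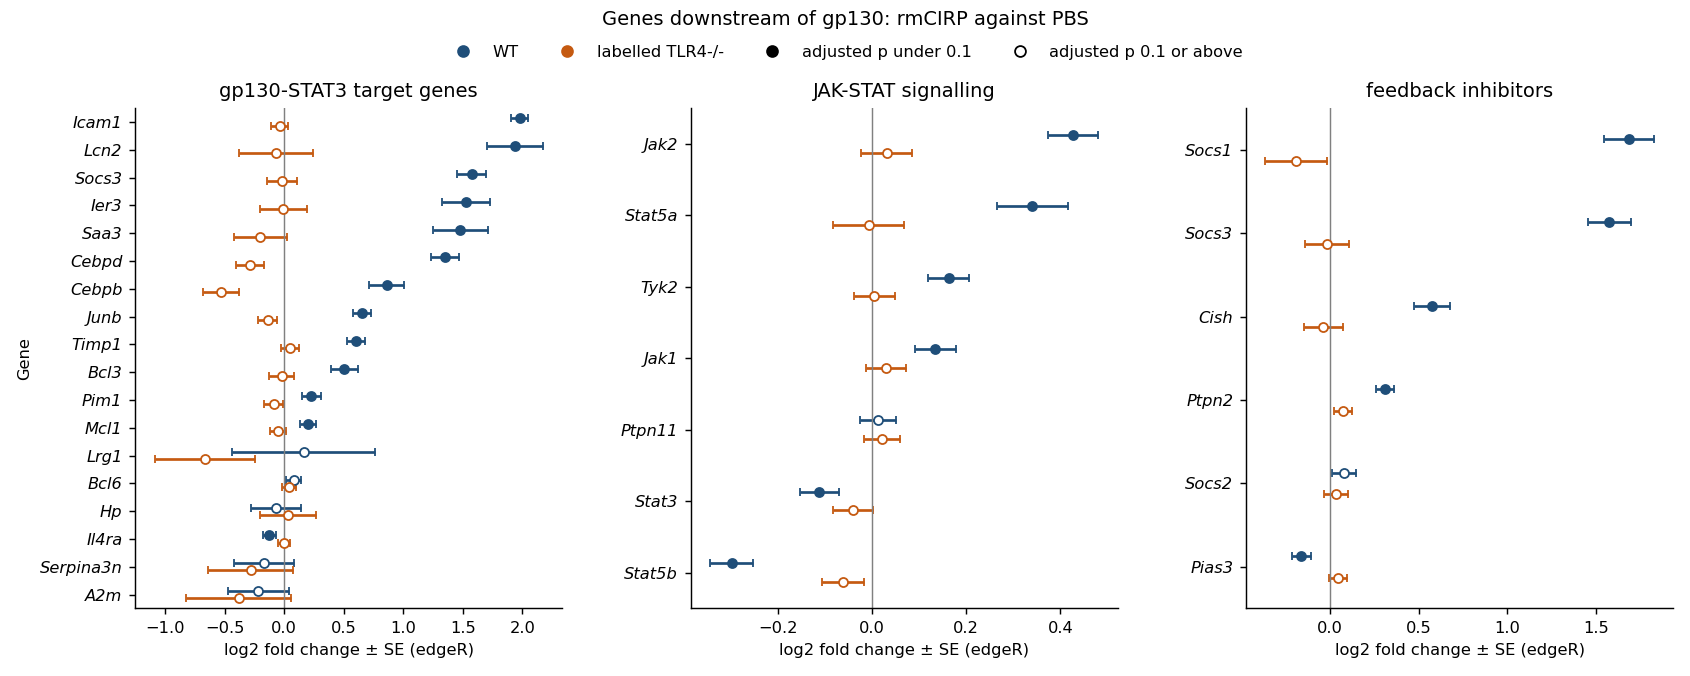
Log2 fold change with its standard error for rmCIRP against PBS in 3 lists of genes below gp130, in WT (blue) and under the label TLR4-/- (orange); filled points have an adjusted p under 0.1. In WT 12 of 18 target genes, 4 of 7 signalling genes and 4 of 6 inhibitors lie to the right of 0 as filled points, and no orange point is filled.

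The genes whose pattern over the 8 condition means was most like that of each ligand were taken from the 12311 genes whose mean reached 50 normalised reads. The measure was Pearson's r of mean log2(normalised count + 1), over points that share libraries and depth, and it is a description only. Nearest to Il6 were Nfkbia (r = 0.995), Zc3h12a (0.994) and Ccl2 (0.994). Nearest to Il11 were Pxdn (0.994), Kdm1a (0.991) and Fxr2 (0.990). Nearest to Lif were Dcun1d5 (0.996), Ttc39c (0.996) and Nabp1 (0.994). Osm lay nearest to Atg2a (0.992), Rhbdf2 (0.989) and Tcirg1 (0.989), and Clcf1 to Fam110c (0.994), Qtrt2 (0.993) and Tmem11 (0.992). Among the members, the closest pairs were Il6 and Lif (0.955) and Il11 and Clcf1 (0.950), and the most opposed were Il6ra and Lifr (-0.937).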

How the data were processed

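Per the labels and the methods of the study, libraries were made with a stranded total RNA kit and sequenced on an Illumina NextSeq. Reads were checked with FastQC, aligned with STAR2 to a mouse GENCODE reference and counted with HTSeq. The submitters' processing notes name the build NCBIM37, and the GENCODE release and the strand setting of the counting are not given in the sources used here. The deposited values are raw counts per gene name and library, and 5 tally rows (14.5% to 16.1% of reads, among them 6.08% to 6.82% not uniquely aligned) were left out.

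Counts were tested with edgeR 4.0.16 in R 4.3.3 (filterByExpr, TMM, quasi-likelihood test, Benjamini-Hochberg over 16258 genes, threshold 0.1) with 1 mean per condition over all 24 libraries, 8 conditions of 3. Log2 values carry standard errors. Printed counts are divided by DESeq2 1.42.0 size factors, and standard deviations are over 3 libraries. Alternatives were DESeq2, RLE, other filters, fewer libraries, 1 library left out and the replicate number as a block. Same-numbered libraries correlated by -0.117 to 0.369 after group means were removed, with a mean of 0.012 over all such pairs, so the numbers were not taken to pair them. The value of 0.369 was that of the 2 libraries numbered 3 that stand apart, so a deviation shared by these 2 was not modelled. The test was tried on simulated data before use. All 10 members are named. From lists of the pathway the genes past the threshold are named, and for each ligand the 3 genes most like it in pattern. The members and lists were chosen with earlier results of these data known, and 2 genes of the pathway lists are not reported here. Promoters are from RefSeq, and figures were drawn with matplotlib 3.10.9. Osm and Clcf1 promoters were not used here.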

Additional observations from a re-analysis of the deposited data

Results flagged for a closer look

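For 5 members the response to rmCIRP differed between the genotype labels by the test of the difference itself (edgeR, response under the label TLR4-/- minus response in WT, log2 scale, 3 libraries in each of 4 conditions). The response was lower under the label in Osm (-2.44 ± 0.32, adjusted p = 6.22e-06), Lif (-2.32 ± 0.35, adjusted p = 4.16e-05), Il6 (-1.99 ± 0.33, adjusted p = 9.70e-05) and Il11 (-0.89 ± 0.34, adjusted p = 0.0569), and higher in Il6st (0.22 ± 0.087, adjusted p = 0.0648). With 1 of 12 libraries left out, the Il11 call was lost in 5 fits and that of Il6st in 7, whereas those of Osm, Lif and Il6 always held. The log2 difference of Il6st between rmCIRP and PBS was -0.23 in WT and -0.011 under the label. Single libraries within the groups of 3 were not tested as outliers.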

How the results depend on the processing

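Counts of members called kept within 1.5 times of the reported value under RLE normalisation, a mean count of at least 10 and the replicate block in every comparison. They moved elsewhere. For rmTGF-β1 added to rmCIRP in WT, 4 members became 7 with no filter, with only the libraries compared, and without the 2 libraries that stand apart (an alternative chosen after the data had been seen). Over all genes, calls there went from 3329 of 16258 to 3136 of 34285, 4591 of 15018 and 4360 of 16483 in turn. For rmTGF-β1 under the label TLR4-/-, 4 became 8 with no filter and 7 with only the libraries compared. Calls over all genes went from 3884 of 16258 to 3559 of 34285 and 3264 of 15149. For rmCIRP added to rmTGF-β1 under the label, 0 became 1 by DESeq2, 4 with no filter and 2 without the 2 libraries. The calls over all genes were 437 of 16258, then 902 of 34285, 1580 of 34285 and 652 of 16483. With no filter, the PBS comparison of the labels gave 9 in place of 5, the genotype difference in the rmTGF-β1 response 3 in place of 0 and the interaction 2 in place of 0. Out of 34285 genes, 6889, 563 and 198 were called in these comparisons, against 7665, 14 and 8 out of 16258. The interaction gave 1 with only the libraries compared (125 of 15646 genes) and 1 without the 2 libraries (92 of 16483 genes). The member called there was Lif, at log2 -0.70 ± 0.35 in the reported fit, -0.71 ± 0.13 with only the libraries compared and -0.69 ± 0.14 without the 2 libraries. The cause of the smaller standard errors and of the other moves was not tested.

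With 1 library left out at a time, the counts ran from 2 to 3 for rmTGF-β1 in WT, from 0 to 5 for rmCIRP added to rmTGF-β1 under the label, and from 3 to 6 for the genotype difference in the rmCIRP response. The shares over all genes in these fits are not given. Of 77 member values followed under each alternative, the sign turned in 8, none of them called with all libraries: with 1 library out, Il6 ran from -0.27 to 0.057 and Osm from -0.21 to 0.20 with rmTGF-β1 in WT, and Il6 from -0.28 to 0.044 between the labels in PBS. With rmCIRP under the label, Il11 ran from -0.056 to 0.041, Lif from -0.095 to 0.032 and Clcf1 from -0.067 to 0.040. With both proteins under the label, Lif ran from -0.017 to 0.93 against rmTGF-β1 and Il6 from -0.31 to 0.48 against rmCIRP, and Il6 was at -0.31 without the 2 libraries. Leaving out the 2 libraries also turned the sign of 5 further values, none of them called. Same-numbered libraries were not paired. The replicate block moved the counts only from 4 to 5 (rmTGF-β1 under the label) and from 5 to 6 (labels in PBS), with Clcf1 added in each. Calls over all 16258 genes went from 3884 to 3954 and from 7665 to 7696 in these comparisons. Over all genes, the block moved the calls for rmCIRP added to rmTGF-β1 under the label from 437 to 810. Of 59 values of pathway genes, 6 changed their call under any alternative and 0 their sign. Osm, with means of 27.9 to 192 normalised reads, carries the most counting error of the members.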

Other observations

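Genes that act on Il6 mRNA and on shed receptors were measured too. Of 7 genes known to stabilise, destabilise or induce Il6 mRNA, 5 were higher and 0 lower with rmCIRP in WT, beside 19.8% and 24.1% of all genes tested. Zc3h12a, which encodes the endonuclease Regnase-1 that degrades Il6 mRNA, was higher (log2 1.21 ± 0.11, adjusted p = 2.05e-08, edgeR), as were Nfkbiz, a co-activator of Il6 transcription (0.75 ± 0.15, adjusted p = 3.29e-04), Zfp36 (0.25 ± 0.062, adjusted p = 0.0032), Rc3h1 (0.18 ± 0.065, adjusted p = 0.0314) and Khsrp (0.14 ± 0.038, adjusted p = 0.00634), which bind and destabilise mRNA. Arid5a, which stabilises Il6 mRNA, did not pass (0.098 ± 0.077, adjusted p = 0.341), nor did Rc3h2. The response was lower under the label TLR4-/- in 3 of the 7, beside 14.3% of all genes tested (Zc3h12a -1.16 ± 0.16, adjusted p = 1.57e-05, Nfkbiz and Zfp36), and the Zfp36 difference was lost without PBS library 3, rmCIRP library 1 or rmCIRP library 3 of WT, or PBS library 2, PBS library 3 or rmCIRP library 3 under the label (adjusted p 0.123 to 0.211), and with the replicate block (0.112). Of the proteases that shed the IL-6 receptor, Adam17 was higher (0.20 ± 0.032, adjusted p = 3.97e-05) and Adam10 lower (-0.30 ± 0.035, adjusted p = 5.53e-07) with rmCIRP in WT.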
